A study of Rattus norvegicus with 23 samples.

Results

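Cholinergic receptors were followed here in the CA3 field of the rat hippocampus, in 23 animals with 1 microarray each. The set was chosen by name and holds 8 genes: the muscarinic receptors Chrm1, Chrm2, Chrm3 and Chrm4, the nicotinic subunits Chrna4, Chrna7 and Chrnb2, and acetylcholinesterase (Ache). Every probe set that the platform's annotation gives to 1 of these symbols was taken, which gave 8 of 31042 probe sets and 7 of the 8 genes, out of 14217 genes named on the array. No probe set carried the symbol Ache, so that acetylcholinesterase was not analysed here, and the set is one of receptors. The animals were male Long-Evans rats with no treatment, killed after behavioural testing in the Morris water maze, in which a rat learns where a hidden platform lies. Aged impaired rats (24 to 26 months old, n = 8) learned worse than young rats, aged unimpaired rats (24 to 26 months old, n = 6) scored within the range of the young, and young rats were 6 months old (n = 9). The group of an aged animal thus rests on its learning index, and the microdissected tissue holds glia, interneurons and passing fibres beside the CA3 pyramidal neurons. The design asks which transcripts differ with age and which with learning ability.

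Acetylcholine reaches the hippocampus mainly through axons from the medial septum and diagonal band, whose cell bodies and most of whose messenger RNA lie outside the dissected tissue. Chrm1 and Chrm3 couple through Gq to phospholipase C, which raises the excitability of pyramidal neurons, and Chrm2 and Chrm4 couple through Gi and Go to inward rectifier potassium channels and inhibit adenylyl cyclase and transmitter release. Chrna4 and Chrnb2 join into a nicotinic channel of high affinity for nicotine, Chrna7 forms a channel with high calcium permeability, and acetylcholinesterase ends the signal by splitting the transmitter.

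Chrm3 fell in both aged groups against young animals and did not pass the test between aged impaired and aged unimpaired animals. The call in aged impaired animals was lost in 7 of 15 alternative analysis settings and in 8 of 23 omissions of 1 animal. That in aged unimpaired animals held in all of them. No other receptor probe set passed the limma test in any of the 4 comparisons. Values are log2 expression values from GCRMA, a method that corrects for background with the probe sequence, on a scale whose lowest value in these arrays was 2.19. A probe set entered the test when 6 or more arrays reached 4 on this scale, as 14647 did. Of the 8 receptor probe sets 2 passed this filter, 1 of Chrm3 and 1 of Chrm4. The other 6, which stand for Chrm1, Chrm2, Chrna4, Chrna7, Chrnb2 and a second Chrm3 probe set, did not reach 4 on any array. Low values of this kind say that the probe set gave little signal above its background, and do not show that the transcript is absent. The plot of all receptor probe sets shows this division.

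**Figure D1:**
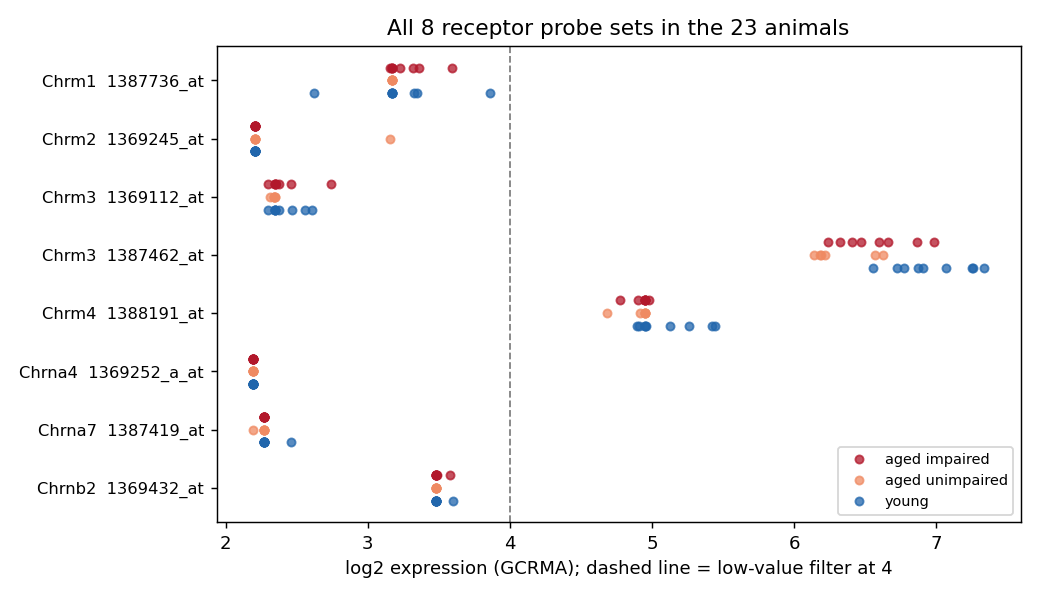
The horizontal axis gives the log2 expression value of each of the 8 receptor probe sets (rows) in each of the 23 animals (points, coloured by group, aged impaired on top, then aged unimpaired, then young), and the dashed line marks the filter at 4. Probe set 1387462_at of Chrm3 and the Chrm4 probe set lie to the right of the line on all 23 arrays, and the other 6 lie to its left on all of them.

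Chrm3 encodes a Gq-coupled muscarinic receptor. Its probe set 1387462_at had log2 values with a lowest of 6.24, a median of 6.54 and a highest of 6.99 in aged impaired animals. In aged unimpaired animals the lowest was 6.14, the median 6.20 and the highest 6.62, and in young animals the lowest was 6.55, the median 6.91 and the highest 7.34. The groups overlapped: 4 of 8 aged impaired and 4 of 6 aged unimpaired animals lay below every young animal, and 4 of 9 young animals lay above every aged animal. Of the 14 aged animals, 13 lay below the young median. Tissue was measured in bulk, in which fewer cells of a type and less RNA per cell cannot be told apart.

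Chrm3 was 1.57-fold lower in aged unimpaired than in young animals, with means of 6.32 ± 0.22 (SD, n = 6) and 6.97 ± 0.27 (SD, n = 9). The log2 difference was -0.65 ± 0.13 SE (95% interval -0.92 to -0.38, limma adjusted p = 0.00877). By p-value it ranked 73rd of the 14647 probe sets, of which 2.06% were called in either direction, 1.37% higher and 0.696% lower. A complete separation with all aged unimpaired below all young animals was seen in 0.287% of probe sets, and Chrm3 did not have it. In a two-sided exact permutation test of the means, p was 0.0012 (0.0048 adjusted over 8 tests, 2 probe sets in 4 comparisons). This test was added after the data were seen. Its adjustment covers 8 tests and that of limma 14647 probe sets, so the adjusted values are not alike.

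In aged impaired against young animals Chrm3 was 1.32-fold lower, with a mean of 6.57 ± 0.26 (SD, n = 8) in aged impaired animals. The log2 difference was -0.40 ± 0.12 SE (95% interval -0.65 to -0.16, limma adjusted p = 0.0337, exact permutation p = 0.00872 and 0.0233 adjusted over the same 8 tests). In this comparison 9.76% of all probe sets were called, 3.88% higher and 5.88% lower. The receptors gave 1 lower call among 2 tested probe sets, a number too small to set against that background. All aged impaired animals lay below all young animals in 0.259% of probe sets, and Chrm3 did not have this separation. The Chrm3 call lies close to the threshold and was lost when any 1 of aged impaired animals 1, 2, 3 or 4 or young animals 1, 5, 8 or 9 was left out (adjusted p from 0.0533 to 0.0691), although the difference itself stayed between -0.46 and -0.36 over all 23 omissions. With both aged groups averaged, Chrm3 was 1.44-fold lower than in the young (-0.53 ± 0.10 SE, limma adjusted p = 0.00439; 6.9% of probe sets called, 3.34% higher and 3.56% lower). A full separation of all aged below all young animals was seen in 0.0273% of probe sets, and Chrm3 did not have it.

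Impaired and unimpaired animals were not shown to differ in Chrm3. The mean was higher in aged impaired than in aged unimpaired animals by 0.25 ± 0.13 SE on the log2 scale (95% interval -0.03 to 0.52, limma adjusted p = 0.389, exact permutation p = 0.0793), with 3 of 8 aged impaired animals above every aged unimpaired one. The interval holds both no difference and an excess of the size of the age difference in impaired animals. Limma called 0 of the 2 receptor probe sets here, with 0 at an unadjusted p under 0.05 and 0 by the exact test, against 0.778% of all probe sets called (0.676% higher, 0.102% lower). The comparisons share samples, so their values are not independent of one another.

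**Figure D2:**
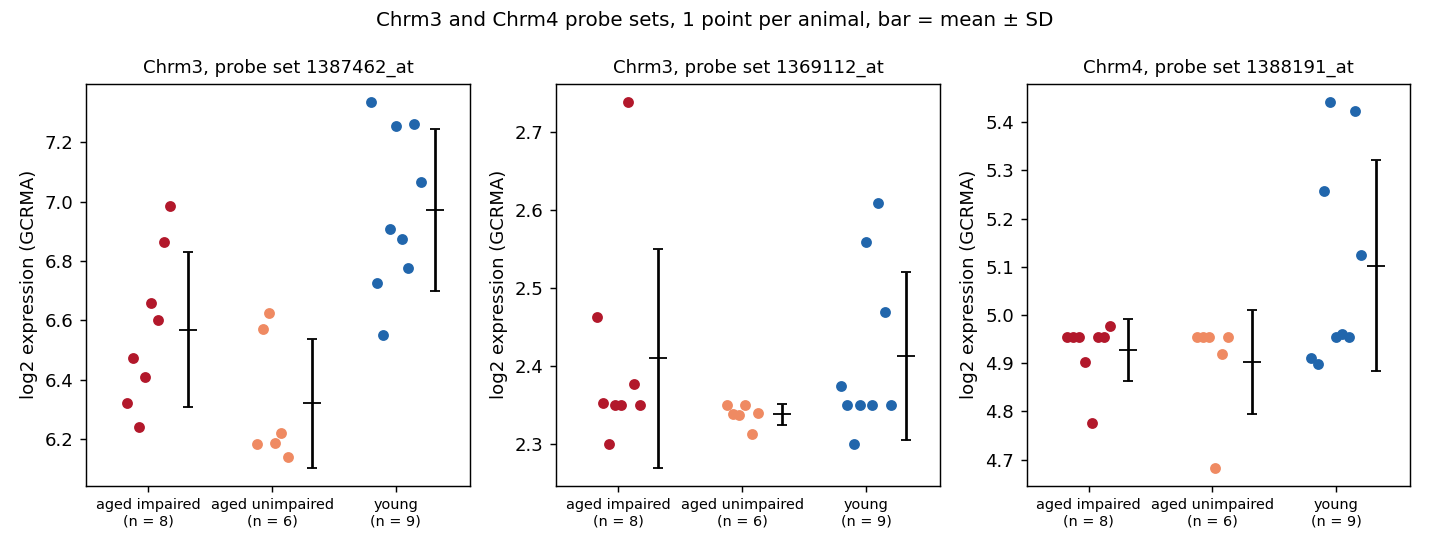
Each point is 1 animal and the bars give the mean ± SD of a group, with log2 expression on the vertical axis, which has its own range in each panel. Probe set 1387462_at of Chrm3 (left) is lower in both aged groups, with means of 6.57 and 6.32 against 6.97 in the young, its other probe set (middle) reaches at most 2.74, and Chrm4 (right) has 4 young animals above every aged animal.

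The second probe set of Chrm3, 1369112_at, lay between 2.30 and 2.74 in aged impaired, 2.31 and 2.35 in aged unimpaired and 2.30 and 2.61 in young animals. These values lie near the low end of the scale, and the groups overlap. The annotation assigns both probe sets to Chrm3 through different accessions, M18088 for 1369112_at and NM_012527 for 1387462_at, and the part of the transcript each one covers was not given in the sources used here.

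Chrm4 encodes the Gi-coupled receptor that is known as an autoreceptor and inhibitory receptor in forebrain. Its values had a lowest of 4.78, a median of 4.95 and a highest of 4.98 in aged impaired animals. In aged unimpaired animals they were 4.68, 4.95 and 4.95, and in young animals 4.90, 4.96 and 5.44. The same value of 4.95, equal to 3 decimals, stood on 11 of the 23 arrays, namely 5 aged impaired, 4 aged unimpaired and 2 young ones. The groups overlapped at that value, while young animals 3, 4, 8 and 9 lay above every aged animal.

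Chrm4 did not pass in any comparison. The log2 difference was -0.17 ± 0.07 SE in aged impaired against young animals (95% interval -0.33 to -0.02, limma adjusted p = 0.127) and -0.20 ± 0.08 SE in aged unimpaired against young animals (-0.36 to -0.04, adjusted p = 0.194). With both aged groups averaged it was -0.19 ± 0.06 SE (limma adjusted p = 0.0784). The exact permutation test of that last difference gave p = 0.013, or 0.026 adjusted over the 8 tests, and the limma call was gained with quantile normalization (-0.22, adjusted p = 0.0348). Between aged impaired and aged unimpaired animals the difference was 0.03 ± 0.08 SE (95% interval -0.14 to 0.19, adjusted p = 0.933). Since 11 of 23 arrays share 1 value, these differences rest on the other 12.

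As sequence context for the measured muscarinic genes, windows around 1 start site per gene (250 bases before to 50 after, RefSeq, rat build GRCr8) are shown for Chrm3 at chr17:64696677-64696976 and Chrm4 at chr3:98348830-98349129, both on the plus strand. The start site of the Chrm4 window is the first base of the annotated gene, and that of the Chrm3 window lies 378 bases inside the annotated gene, so that the region before the first base of Chrm3 is not shown. Capitals mark matches to the GC box (GGGCGG, or CCGCCC on the other strand), the binding motif of SP factors, and overlapping matches run together.
Chrm3: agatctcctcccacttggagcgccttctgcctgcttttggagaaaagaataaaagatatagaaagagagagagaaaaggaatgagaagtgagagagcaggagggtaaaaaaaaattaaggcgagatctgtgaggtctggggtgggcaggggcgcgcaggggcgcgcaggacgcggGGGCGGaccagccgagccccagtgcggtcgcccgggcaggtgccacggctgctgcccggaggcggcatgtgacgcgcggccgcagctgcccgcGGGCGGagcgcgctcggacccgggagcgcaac
Chrm4: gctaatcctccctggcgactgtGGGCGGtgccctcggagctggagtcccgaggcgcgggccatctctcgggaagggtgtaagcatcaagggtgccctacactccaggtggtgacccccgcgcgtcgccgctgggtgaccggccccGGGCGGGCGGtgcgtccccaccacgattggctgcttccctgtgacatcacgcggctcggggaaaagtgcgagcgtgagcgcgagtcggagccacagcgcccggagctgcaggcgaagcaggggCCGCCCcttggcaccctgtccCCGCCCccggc
The Chrm3 window held 2 GC box matches and the Chrm4 window 5, and 33.1% of the 33469 rat windows of this length held at least 1. All 8 genes of the set had a window in the table, with 57.7% G and C in Chrm1 and 75% in Ache as the extremes, against a median of 51.7% over all windows. The windows of the unmeasured genes held between 0 (Chrm1) and 4 (Ache) GC box matches. The TATA box (TATAAA or TTTATA, found in 14.2% of windows) and the CRE (TGACGTCA, the same on both strands, found in 1.83%) had 0 matches in all 8. These matches describe the letters of the windows alone.

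The other probe sets lay below the filter. Chrm1 encodes the muscarinic receptor that is known as the most abundant one in hippocampal pyramidal neurons. Its values ran from 3.15 to 3.59 in aged impaired animals and from 2.62 to 3.86 in young animals, and stood at 3.17 on all 6 aged unimpaired arrays. It shared the value of 3.17 on 14 of 23 arrays. The highest value, 3.86, was that of young animal 1.

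Chrm2, a Gi-coupled receptor found on cholinergic terminals and interneurons, stood at 2.21 on 22 of 23 arrays, with 3.15 in aged unimpaired animal 4. Chrna4 stood at 2.19, the lowest value of the scale, on 23 of 23 arrays. Chrna7 stood at 2.27 on 21 arrays, with 2.19 in aged unimpaired animal 2 and 2.46 in young animal 1. Chrnb2, which pairs with Chrna4, stood at 3.48 on 20 arrays and reached at most 3.60. None of these probe sets separated the groups. When all 31042 probe sets were tested without a filter, the lowest limma adjusted p over these 6 probe sets and the 4 comparisons was 0.644, that of Chrna7 for both aged groups against young.

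The other cholinergic genes were taken as lists. Of 14 further receptor genes (Chrm5 and 13 nicotinic subunits), all had a probe set and 0 passed the filter, with means between 2.19 and 2.20. On the list of acetylcholine supply and breakdown, the synthetic enzyme Chat, the vesicular transporter Slc18a3, the choline uptake carrier Slc5a7, butyrylcholinesterase Bche and the collagen tail Colq had means between 2.19 and 2.25, and Prima1 had no probe set of that symbol. Of the 7 listed markers of basal forebrain cholinergic neurons, 5 had a probe set and 0 passed, with means between 2.19 and 2.21.

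Across the 4 pathway lists with a measured gene, 32 genes were tested. In aged impaired against young animals 1 rose and 3 fell, or 12.5% of the 32 against 9.76% of all probe sets, and the median of their log2 differences was -0.05, where that of all tested probe sets was -0.02. In aged unimpaired against young animals limma called 0 of 32 (6 at an unadjusted p under 0.05), against 2.06% of all probe sets. It called 0 of 32 in aged impaired against aged unimpaired animals (7 at an unadjusted p under 0.05), against 0.778% of all probe sets, and 0 of 32 for both aged groups against young (10 at an unadjusted p under 0.05), against 6.9% of all probe sets. Over all probe sets the share at an unadjusted p under 0.05 was 16.8% in aged unimpaired against young animals, 15.2% between the aged groups and 23.6% for both aged groups against young.

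Slc44a1, a choline transporter of the plasma membrane that also serves phospholipid synthesis, was the 1 measured gene of the supply list. It had a lowest log2 value of 8.51, a median of 9.06 and a highest of 9.45 in aged impaired animals, against 8.41, 8.68 and 8.90 in young animals. It rose 1.28-fold (0.36 ± 0.11 SE, limma adjusted p = 0.0412), and 6 of the 8 aged impaired rats exceeded every young rat. In aged unimpaired animals the median was 8.79 and the difference from young was 0.16 ± 0.12 SE (adjusted p = 0.518). Its other probe sets gave 0.34 ± 0.15 SE (1370935_at, adjusted p = 0.16) and 0.00 ± 0.09 SE (1373054_at, adjusted p = 1) for aged impaired against young, so the rise was not seen on all probe sets of the gene. For aged unimpaired against young animals 1370935_at gave -0.27 ± 0.17 SE (adjusted p = 0.428), opposite in sign to the first. Between aged impaired and aged unimpaired animals the first probe set gave 0.19 ± 0.12 SE (adjusted p = 0.483) and 1370935_at gave 0.61 ± 0.17 SE (adjusted p = 0.0819), with 5 of 8 aged impaired animals above every aged unimpaired one. The call of Slc44a1 was lost in 12 of the 23 omissions of 1 animal (adjusted p at most 0.0838).

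The nicotinic chaperone and modulator list had 5 of 9 genes tested: the assembly factors Ric3 and Tmem35a, the toxin-like proteins Lynx1 and Ly6h, which bind nicotinic receptors, and Vsnl1, a calcium sensor that binds Chrna4. In aged impaired against young animals 1 fell and the median of the list was -0.14. Vsnl1 fell 1.10-fold (-0.14 ± 0.04 SE, limma adjusted p = 0.0416). Its log2 values had a lowest of 11.87, a median of 11.90 and a highest of 12.15 in aged impaired animals, against 11.98, 12.07 and 12.19 in young animals. Of the 8 aged impaired animals, 7 lay below every young animal and animal 1 lay above the young median. The call was lost in 13 of the 23 omissions of 1 animal (adjusted p at most 0.0746), and with the CA3 marker level described further on as a covariate the difference was -0.06 (adjusted p = 0.783). The other 4 genes lay between -0.19 (Ly6h) and -0.03 (Tmem35a) without a call. A second Vsnl1 probe set gave -0.18 ± 0.08 SE (adjusted p = 0.131) and, for both aged groups against young, -0.23 ± 0.07 SE (adjusted p = 0.0382). In aged unimpaired against young animals the first Vsnl1 probe set gave -0.10 ± 0.05 SE (limma adjusted p = 0.281). The second gave -0.28 ± 0.08 SE there (limma adjusted p = 0.0743), with 5 of 6 aged unimpaired animals below every young one. Its difference was thus larger in aged unimpaired than in aged impaired animals.

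The Gq branch, through which Chrm1 and Chrm3 act, had 11 of 17 genes tested and limma called 0 of 11 in each comparison. At an unadjusted p under 0.05 there were 0 in aged impaired against young animals, 0 in aged unimpaired against young animals, 2 in aged impaired against aged unimpaired animals and 1 for both aged groups against young. Over all tested probe sets the shares at that level, in the same order, were 26.3%, 16.8%, 15.2% and 23.6%. Limma calls made up 9.76%, 2.06%, 0.778% and 6.9% of them. In aged impaired against young animals the differences ran from -0.19 for Rgs4, which shortens Gq and Gi signals, to 0.33 for the G protein subunit Gna11, with a median of 0.03. In aged unimpaired against young animals they ran from -0.34 (Rgs4) to 0.15 (the phospholipase Plcb4), with a median of -0.01. Rgs4 and Gna11 were the extremes of the list and were chosen after their values were seen. The subunit Gnaq repeated 1 value, 4.55, on most arrays of each group, which limits what its test could show.

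The Gi branch, through which Chrm2 and Chrm4 act, had 15 of 20 genes tested, and 2 of the 15 fell in aged impaired against young animals, where 5.88% of all probe sets were called lower. Kcnj6, a subunit of the inward rectifier channels that Gi-coupled receptors open, had a lowest log2 value of 9.88, a median of 10.06 and a highest of 10.15 in aged impaired animals. In aged unimpaired animals these were 10.16, 10.25 and 10.35, and in young animals 10.05, 10.23 and 10.42. It was 1.15-fold lower in aged impaired than in young animals (-0.20 ± 0.05 SE, limma adjusted p = 0.0202), and the difference between aged unimpaired and young animals was 0.02 ± 0.06 SE (adjusted p = 0.93). With the CA3 marker level as a covariate the Kcnj6 difference between aged impaired and young animals was -0.10 (adjusted p = 0.665), and with the replicate number as a block it was -0.19 (adjusted p = 0.0603). Of the 4 Kcnj6 probe sets only the brightest, 1369035_a_at, passed the filter, so all Kcnj6 values given here are those of that probe set.

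All 8 aged impaired animals lay below every aged unimpaired animal in Kcnj6, a separation shown by 0.164% of all probe sets in that direction. It was narrow, with a highest aged impaired value of 10.1462 and a lowest aged unimpaired value of 10.1572. Kcnj6 was named for its call against young animals, which rests on the same aged impaired animals, so the share is no test of it. The direct comparison gave -0.21 ± 0.06 SE (95% interval -0.34 to -0.09), which did not pass over all probe sets (limma adjusted p = 0.0763). Rgs14, which limits Gi signals and is known for high expression in the neighbouring CA2 field, fell 1.18-fold in aged impaired against young animals (-0.24 ± 0.07 SE, limma adjusted p = 0.0254). Its lowest, median and highest log2 values were 8.23, 8.58 and 8.72 in aged impaired animals, against 8.61, 8.75 and 9.14 in young animals, with 5 of 8 aged impaired animals below every young one. The Rgs14 call ended with no filter (adjusted p = 0.0592), in a fit of these 2 groups alone (0.0526) and with the CA3 marker level as a covariate (-0.30, adjusted p = 0.241). Against aged unimpaired animals the difference was -0.20 ± 0.07 SE (adjusted p = 0.179). The median of the Gi branch was -0.07 in aged impaired and -0.06 in aged unimpaired animals against young ones.

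**Figure D3:**
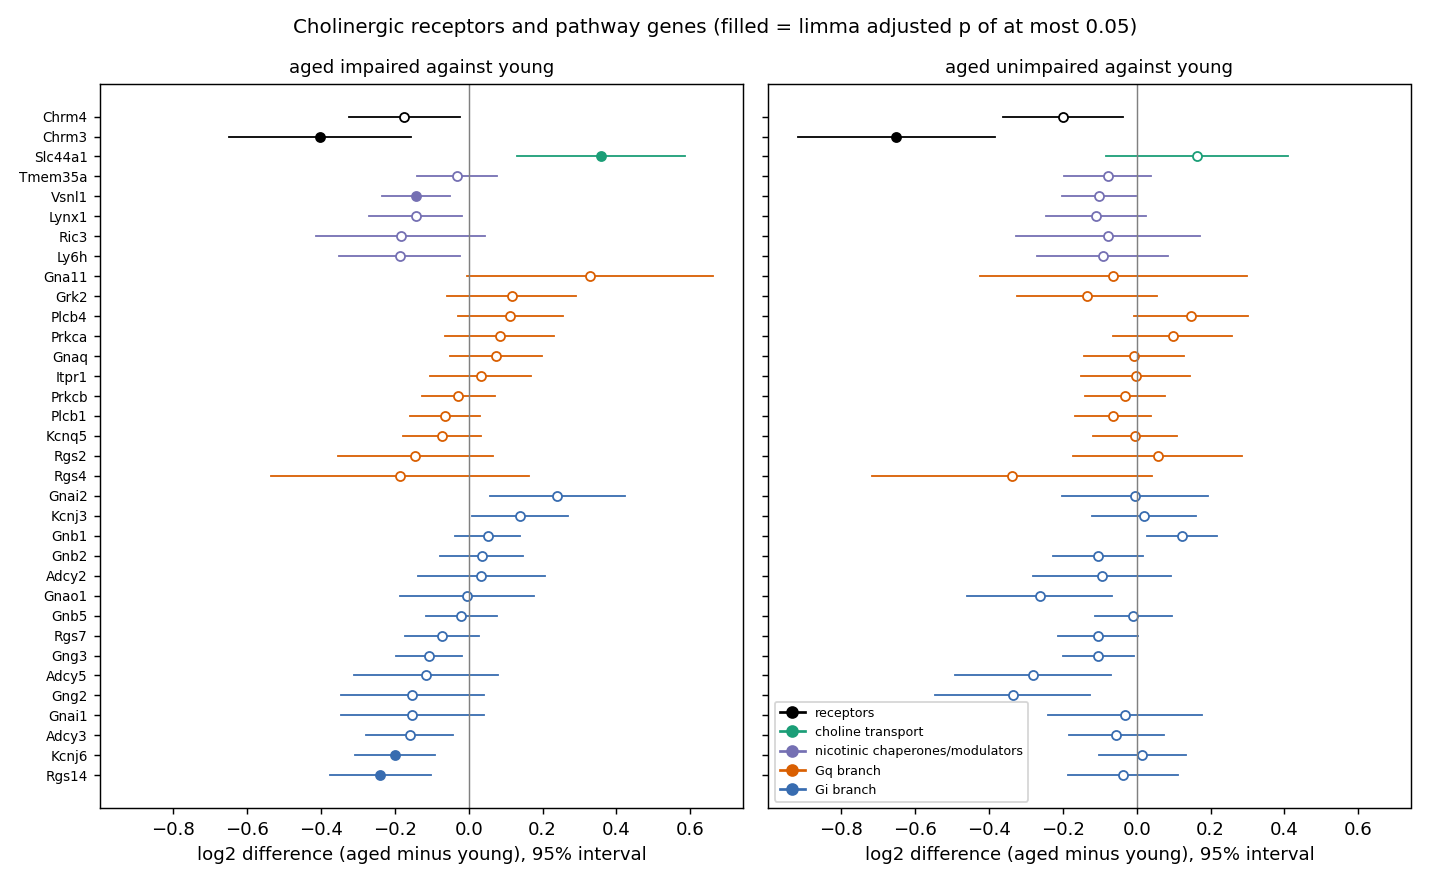
The horizontal axes give the log2 difference of an aged group minus young with its 95% interval for the 2 tested receptors and the 32 tested pathway genes (rows, coloured by list), and filled points have a limma adjusted p of at most 0.05. On the left, aged impaired against young, Chrm3, Vsnl1, Kcnj6 and Rgs14 are filled below 0 and Slc44a1 above it, and on the right, aged unimpaired against young, Chrm3 at -0.65 is the filled point.

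Among 8725 other genes, each taken by its brightest tested probe set, Ergic1 had the pattern most like that of Chrm3 over the 23 arrays (Pearson r = 0.82, and 0.83 with the group means removed). Ergic1 encodes a membrane protein of the compartment between the endoplasmic reticulum and the Golgi. Ociad1 (r = 0.75, and 0.60 with group means removed) and the microtubule affinity regulating kinase Mark1 (0.69 and 0.51) came next. Mark1 was lower in aged impaired than in young animals (-0.35 ± 0.10 SE, limma adjusted p = 0.0334), Ergic1 and Ociad1 stood at -0.11 and -0.13 without a call. For Chrm4 the nearest were Fbxw9 (0.76), Ttc39c (0.76) and the transporter Abcc5 (0.75), with 0.66, 0.68 and 0.63 after the group means were removed. These are descriptions over arrays that share age groups and a normalization.

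Markers of CA3 and of other cells moved with the groups. Of 10 CA3 pyramidal markers, 8 were tested and 4 fell in aged impaired against young animals (0 in aged unimpaired against young animals). Over all tested probe sets, 5.88% were called lower in the first of these comparisons and 0.696% in the second. The mean log2 level of the list ran from 9.76 to 10.21 in aged impaired, 10.03 to 10.16 in aged unimpaired and 10.13 to 10.28 in young animals. With that level as a covariate, added after the data were seen, Chrm3 stood at -0.50 (adjusted p = 0.284) in aged impaired and -0.71 (adjusted p = 0.0367) in aged unimpaired against young animals. Without the covariate these differences were -0.40 and -0.65. In the fit with the covariate 24 probe sets were called in aged impaired against young and 58 in aged unimpaired against young animals. CA1 markers, which mark the neighbouring field, ran from 6.90 to 8.63 in aged impaired, 7.27 to 7.76 in aged unimpaired and 5.97 to 8.03 in young animals, with 0 of 6 called by limma. With their level as a covariate Chrm3 stood at -0.40 (adjusted p = 0.0705) in aged impaired and -0.65 (adjusted p = 0.0142) in aged unimpaired against young animals.

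Of 10 interneuron markers, 8 were tested and limma called 0 in any comparison, with levels from 8.24 to 8.56 in aged impaired, 8.11 to 8.47 in aged unimpaired and 8.07 to 8.69 in young animals. Of 8 microglial markers, 6 were tested and 5 rose in aged impaired and 5 in aged unimpaired against young animals, with levels from 8.05 to 8.64 in aged impaired, 8.09 to 8.46 in aged unimpaired and 7.42 to 7.82 in young animals. The other 2 microglial markers, Itgam and Cx3cr1, had means of 2.31 and 2.32. Of 8 astrocyte markers, 7 were tested, of which 3 rose in aged impaired and 2 in aged unimpaired against young animals. Over all tested probe sets, 3.88% were called higher in aged impaired and 1.37% in aged unimpaired against young animals. The part of the microglial and astrocyte shifts in the Chrm3 difference was not tested.

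**Figure D4:**
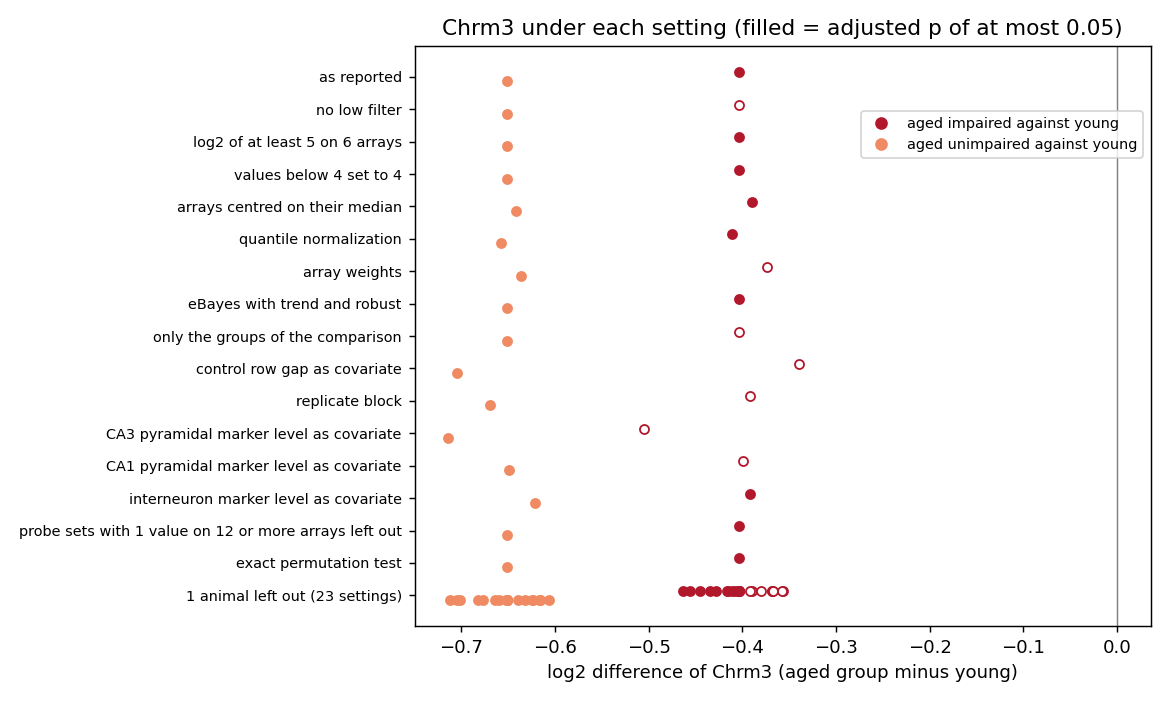
The horizontal axis gives the log2 difference of Chrm3 (an aged group minus young) under each analysis setting (rows), and filled points have an adjusted p of at most 0.05. The aged unimpaired difference stays filled in every row, from -0.71 to -0.61, and the aged impaired difference keeps its sign and loses its filling in 7 of the 15 alternative rows and in 8 of the 23 single omissions.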

How the data were processed

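RNA from microdissected CA3 tissue was labelled and hybridised to Affymetrix Rat Genome 230 2.0 arrays, with each animal on its own array, per the labels' protocols. The deposited values are log2 expression values made by the authors with GCRMA, per the submitters' processing notes, which name no version. GCRMA as usually run brings arrays to a common distribution, which removes differences shared by most probe sets. Array medians lay between 3.39 and 3.46, and mean correlations of an array with the others between 0.9959 and 0.9974. Arrays give no read depth, and their number limits the precision.

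The 57 control rows were left out. Probe sets were named from the platform annotation where it gives 1 gene (20826 of 31042), updated by gene identifier through a RefSeq table (GRCr8, 20758 matched). Probe sets reaching 4 on 6 or more arrays entered 1 fit of all 23 arrays, 1 mean per group, with limma 3.58.1 in R 4.3.3 (lmFit and eBayes, two-sided, 20 residual and 2.35 prior degrees of freedom). P-values were adjusted by Benjamini-Hochberg over 14647 probe sets, and a call is an adjusted p of at most 0.05. A gene of a list stands by its brightest probe set. Permutation tests used scipy 1.17.1. The fit was tested on simulated data.

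The members and lists were chosen with earlier results of these data known. Named were all receptor probe sets, the genes of the supply list, pathway genes called in any comparison, and the 3 genes most like each tested receptor over the arrays. Extremes of a list named beside its range were chosen after their values were seen. Alternatives covered filters, normalization, array weights, the variance model, covariates, the replicate number as a block and leaving out each animal.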

Additional observations from a re-analysis of the deposited data

Results flagged for a closer look

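Within-group values that stand apart were looked for with Dixon's test (95% level) in 28 groups of values of the receptor probe sets and the 4 called pathway genes, leaving out groups whose range was under 0.01. It marked 12. The rate of about 1 in 20 by chance holds for values without ties, so the 12 cannot be set against it. Of the 12, 5 lie on the Chrm2, Chrna7 and Chrnb2 probe sets, where 20 or more of the 23 arrays share 1 value. Chrm1, Chrm4 and the low Chrm3 probe set also repeat 1 value, on 14, 11 and 9 arrays. Among receptors with low values they were Chrm1 at 3.59 in aged impaired animal 7, Chrm2 at 3.15 in aged unimpaired animal 4 (the others at 2.21), and the low Chrm3 probe set 1369112_at at 2.74 in aged impaired animal 6 and 2.31 in aged unimpaired animal 7. Chrna7 stood at 2.19 in aged unimpaired animal 2 and 2.46 in young animal 1 (the others at 2.27), and Chrnb2 at 3.58 in aged impaired animal 1 and 3.60 in young animal 8 (3.6 against 3.48 for the nearest other).

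Chrm4 was low at 4.78 in aged impaired animal 5 and at 4.68 in aged unimpaired animal 6. Without aged unimpaired animal 6 its difference between aged impaired and aged unimpaired animals was -0.019, where it was 0.03 with all animals. Among pathway genes, Vsnl1 was high at 12.15 in aged impaired animal 1 (the next at 11.96) and Rgs14 low at 8.23 in aged impaired animal 5 (the next at 8.49). The tested Chrm3 probe set, Slc44a1 and Kcnj6 had no such value.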

How the results depend on the processing

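Chrm3 was lower in aged unimpaired than in young animals under all 15 alternatives (log2 difference from -0.71 to -0.62, adjusted p at most 0.047) and all 23 omissions of 1 animal (-0.71 to -0.61). For aged impaired against young animals the sign held throughout, and 7 of 15 alternatives ended the call: no filter (adjusted p = 0.0874), array weights (0.0602), a fit of these 2 groups alone (0.0525), the control row gap as a covariate (0.0973), the replicate block (0.071), and the CA3 (0.284) and CA1 (0.0705) marker levels as covariates, so that 0 receptor probe sets were called there. For both aged groups against young the CA3 covariate left 0 called (adjusted p = 0.0913), and quantile normalization and the interneuron covariate called 2, Chrm4 being the second. Leaving out 1 animal gave 0 to 1 called receptor probe sets in aged impaired against young animals. The Chrm4 difference between the aged groups turned to -0.069 with the control row gap and to -0.019 without aged unimpaired animal 6.

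The correlation of deviations of same-numbered animals lay between -0.14 and 0.13, which cannot settle whether the replicate numbers of the labels pair animals. With the replicate block, 870 probe sets were called in aged impaired against young, 86 in aged unimpaired against young, 0 between the aged groups and 527 for both aged groups against young, where the fit without it called 1429, 302, 114 and 1010. In the same order the counts were 768, 126, 2 and 509 with no filter, and 24, 58, 6 and 28 with the CA3 covariate. Other shifts over 1.5 times were 937 (impaired against young) and 0 (between aged groups) with the control row gap, and 860, 69 (between aged groups) and 662 (both aged) with the CA1 covariate. Array weights gave 672 (unimpaired against young) and 222 (between aged groups). Between the aged groups the interneuron covariate gave 35, quantile normalization 184 and a fit of these groups alone 0. Over the omissions the counts ran from 1017 to 1808, 175 to 382 (aged unimpaired animals 4 and 6 and young animal 3 moved it by over 1.5 times), 2 (without aged unimpaired animal 4) to 447 (without aged unimpaired animal 7, with 14 animals moving it by over 1.5 times) and 615 (without young animal 3) to 1285. Centring each array on its median gave 768 higher and 768 lower calls in aged impaired against young, where the reported split was 568 and 861. The cause of these shifts was not tested. In aged impaired against young animals, the calls of Slc44a1, Vsnl1 and Rgs14 ended with no filter (adjusted p = 0.104, 0.076 and 0.0592) and in the fit of these 2 groups alone (0.0508, 0.0519 and 0.0526). Those of Slc44a1 and Vsnl1 ended with the control row gap (0.0897 and 0.0672), those of Slc44a1 and Kcnj6 with the replicate block (0.127 and 0.0603), and those of Slc44a1, Vsnl1 and Kcnj6 with the CA1 covariate (0.0901, 0.0632 and 0.0659). With the CA3 covariate all 4 calls ended. The differences were then 0.35 for Slc44a1 (0.36 without it), -0.30 for Rgs14 (-0.24), -0.06 for Vsnl1 (-0.14) and -0.10 for Kcnj6 (-0.20). Omitting 1 animal also ended the calls of Slc44a1 (highest adjusted p 0.0838) and Vsnl1 (0.0746) in aged impaired against young, for most animals of both groups, but not those of Kcnj6 (0.0397) or Rgs14 (0.0458). Dim signal below the filter limits 6 of the 8 receptor probe sets, and the Chrm4 probe set, which passed it, repeated 1 value on 11 arrays. Covariates of marker levels, the exact test and the omission of probe sets sharing 1 value were added after the data were seen. That omission took probe sets with 1 value on 12 or more arrays, so Chrm4 stayed in.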
